A study of Rattus norvegicus with 7 samples.

Results

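The ABC drug and lipid transporters are membrane pumps that use ATP to move drugs, conjugates, lipids and heme precursors across membranes. The 10 genes described here were Abcb1a, Abcb1b, Abcb4, Abcb6, Abcc1, Abcc3, Abcc4, Abcc5, Abca1 and Abcg1. Probe sets were taken by gene symbol from the annotation of the array. Of 31099 probe sets on the array, 16 were annotated to 1 of these genes alone, and they covered 9 of the 10 genes. A further probe set was annotated to both Abcb1a and Abcb1b, and Abcb1b had no probe set of its own. ROE2 is an epithelial line established from the tongue of an 18-day-old fetal transgenic Wistar rat that carries a temperature-sensitive SV40 large T-antigen, and all arrays came from this 1 line. All cells had been moved to body temperature a day before treatment. The study asked which genes respond when sodium fluoride (NaF) kills these cells. RNA was measured after 2 mM NaF for 3, 6 and 12 h, and after vehicle (sterilized water) for 0, 3, 6 and 12 h. Each array held RNA pooled from 3 independent experiments, so there was 1 array for each treatment and time and no replicate array.

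In rodents the P-glycoprotein that carries many drugs out of cells is encoded by a pair of genes, Abcb1a and Abcb1b. Abcb4 lies beside them and moves phosphatidylcholine to the outer leaflet of the membrane, and is best known from the bile canaliculus of the liver. The Abcc genes encode multidrug resistance-associated proteins, which export organic anions such as glutathione and glucuronide conjugates. Abca1 and Abcg1 pass cholesterol to lipoproteins and are classical targets of the liver X receptors, and Abcb6 carries porphyrins. In epithelia such pumps form part of the barrier against foreign compounds.

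Abcb1a and Abcb4 rose at 6 and 12 h of NaF, Abcc4 fell at 3 and 6 h and Abcc5 fell at 12 h, whereas the tested probe sets of Abcc1, Abcc3, Abcb6 and Abcg1 passed the test at no time. The largest same-time differences were 2.22 for Abcb4 at 6 h and 2.02 and 1.94 for the Abcb1a probe sets at 12 h, in log2 units of NaF minus vehicle. Signals are deposited log2 values. A probe set was tested when its log2 signal was at least 7 on any array, which left 11745 of the series and 9 of the 16 own probe sets, from 8 genes. Of these, 6 passed through a vehicle array, whereas 3, both of Abcb1a and that of Abcb4, passed through NaF arrays only. Those 3 therefore had to be higher in NaF on some array to be tested, and counts over the tested probe sets and the ranks of these 3 are descriptions. Their adjusted p at 6 and 12 h are also given without the filter.

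In the limma comparison, each NaF array was set against the mean of the 4 vehicle arrays, and a call is an adjusted p under 0.05 over all 11745 probe sets. The p-values rest on the spread among the vehicle arrays, which differ in time, and the single NaF array was assumed to vary like them. At 3 h, 0 own probe sets were called higher and 1 lower, while 2.88% of all tested probe sets were called higher and 5.91% lower. At 6 h the calls were 3 higher and 1 lower, beside 16.9% higher and 21.5% lower over all tested. At 12 h they were again 3 higher and 1 lower, beside 29.7% and 30.8%. The median change of the 9 probe sets was 0.20, 0.26 and -0.06 for the NaF arrays of 3, 6 and 12 h, and the median over all tested probe sets was -0.01, 0.01 and 0.00. Without the filter on signal, 0 of the 16 own probe sets were called in either direction at 3 h (background 0.235% higher and 0.483% lower). By 6 h there were 2 higher and 1 lower (background 4.58% and 6.65%), and the 12 h array gave 3 higher and 0 lower (background 12.0% and 12.8%). A filter on the mean signal kept only 5 of the 16, without Abcb1a, Abcb4 and Abcc4, and is given with the other alternatives at the end. In bulk RNA of this kind, fewer cells with a transcript and less transcript per cell cannot be told apart.

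Between the single arrays of the same time, 0 own probe sets lay past 2.5-fold after 3 h, 1 (Abcb4) after 6 h and 3 after 12 h, all of them higher. Over all tested probe sets the shares past 2.5-fold were 0.272% higher and 0.366% lower after 3 h, 1.27% and 1.29% after 6 h, and 2.77% and 2.09% after 12 h. This count carries no test.

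**Figure D1:**
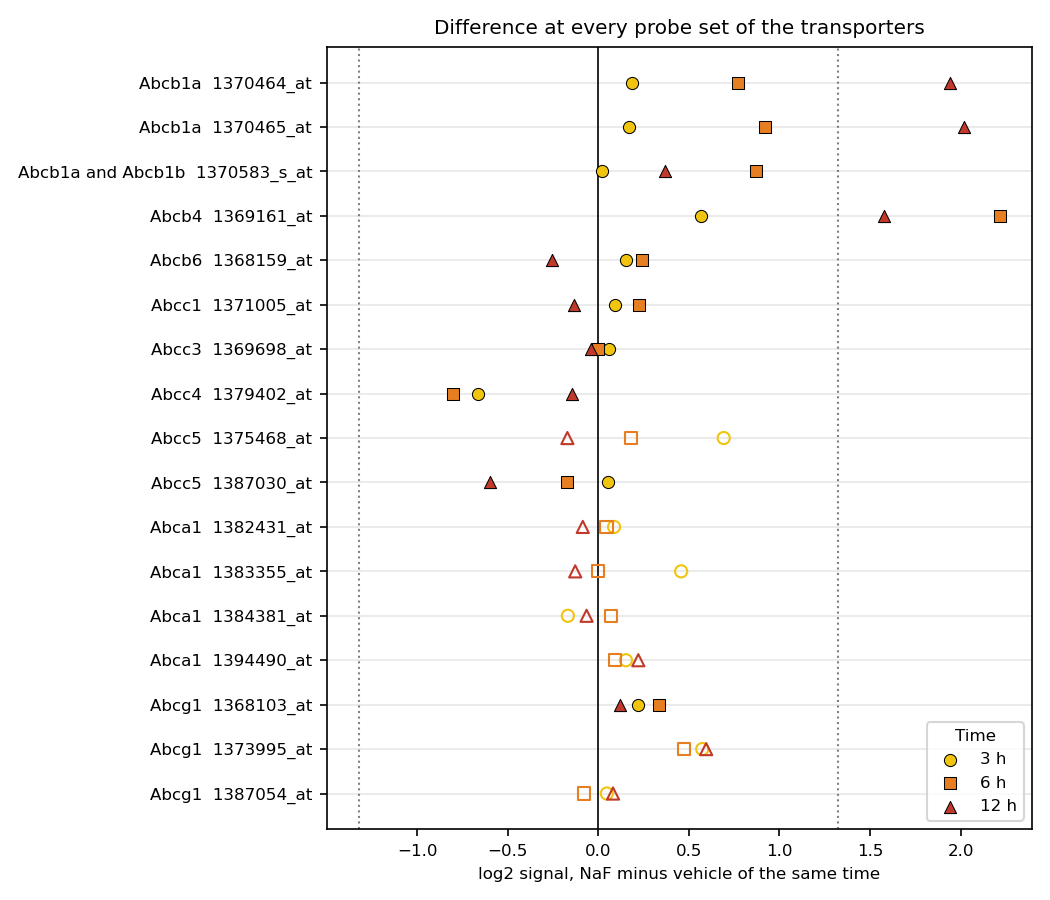
The difference in log2 signal between NaF and vehicle of the same time (horizontal axis) is plotted for every probe set of the transporters, with circles for 3 h, squares for 6 h and triangles for 12 h. Filled symbols are tested probe sets, open symbols are probe sets below a signal of 7 on all arrays, and dotted lines mark 2.5-fold; the points past the right line are Abcb4 at 6 and 12 h and Abcb1a at 12 h, and none lies past the left line.

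The own probe sets of Abcb1a and Abcb4 held the largest rises, and Abcc4 was called lower at 3 and 6 h. Abcb1b lies between Abcb4 and Abcb1a and was read only through the shared probe set. The sequences before the starts of these genes are shown so that their starts can be compared. Each holds 250 bases before and 50 after the annotated start, from RefSeq on the rat assembly GRCr8, written 5′ to 3′ on the strand of the gene, and 7 of the 10 genes had such an entry. Capitals mark matches on either strand to the searched motifs, which were the AP-1 site (TGANTCA), the cAMP response element (TGACGTCA), the composite site of ATF4 and C/EBP proteins (TGATGNAA), the CCAAT box, the GC box with the letters GGGCGG and the E-box with the letters CACGTG.
Abcb1a, chr4:26397599-26397898, minus strand: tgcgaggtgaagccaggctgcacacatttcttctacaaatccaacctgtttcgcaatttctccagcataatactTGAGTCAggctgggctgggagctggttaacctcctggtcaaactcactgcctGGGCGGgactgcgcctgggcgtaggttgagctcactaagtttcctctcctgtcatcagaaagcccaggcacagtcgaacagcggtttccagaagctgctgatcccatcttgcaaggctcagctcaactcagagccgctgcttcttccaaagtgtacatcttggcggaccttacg
Abcb1b, chr4:26279980-26280279, minus strand: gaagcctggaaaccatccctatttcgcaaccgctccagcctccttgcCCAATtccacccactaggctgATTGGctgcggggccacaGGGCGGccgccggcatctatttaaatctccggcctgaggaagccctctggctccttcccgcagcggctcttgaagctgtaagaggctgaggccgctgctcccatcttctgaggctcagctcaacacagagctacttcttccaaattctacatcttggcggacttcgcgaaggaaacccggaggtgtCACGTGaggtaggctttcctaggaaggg
Abcb4, chr4:26164096-26164395, minus strand: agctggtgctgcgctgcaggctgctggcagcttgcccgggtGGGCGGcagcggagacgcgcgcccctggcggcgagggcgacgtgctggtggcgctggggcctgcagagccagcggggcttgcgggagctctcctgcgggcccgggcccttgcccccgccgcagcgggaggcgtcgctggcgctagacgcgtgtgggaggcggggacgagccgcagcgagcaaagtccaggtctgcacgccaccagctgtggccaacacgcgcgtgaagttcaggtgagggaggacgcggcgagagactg
Abcc4, chr15:102181315-102181614, minus strand: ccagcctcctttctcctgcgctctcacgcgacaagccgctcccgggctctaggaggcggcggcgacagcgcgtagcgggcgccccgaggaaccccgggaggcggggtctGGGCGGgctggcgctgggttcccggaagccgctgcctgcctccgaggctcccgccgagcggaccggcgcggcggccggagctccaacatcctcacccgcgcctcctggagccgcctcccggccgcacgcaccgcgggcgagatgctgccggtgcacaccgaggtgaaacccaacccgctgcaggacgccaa

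Counting from the first base printed, the Abcb1a sequence held an AP-1 match at bases 75 to 81 and a GC box at bases 127 to 132. The Abcb1b sequence had a CCAAT box at bases 48 to 52, another on the opposite strand at bases 69 to 73, a GC box at bases 87 to 92 and an E-box at bases 273 to 278. Abcb4 and Abcc4 each held a single GC box, at bases 42 to 47 and 110 to 115. Their GC contents were 74.3% and 75.3%, above the 53.7% of Abcb1a and the 58.3% of Abcb1b. Over the 33469 promoter entries of the same length, 7.33% held the AP-1 letters, 1.83% the cAMP response element, 3.98% the ATF4 and C/EBP site, 37.5% the CCAAT box, 33.1% the GC box and 6.42% the E-box. Among the 7 entries of these transporters the AP-1 letters were found in that of Abcb1a alone. A match describes letters only, and binding was not measured.

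Abcb1a was followed by a pair of own probe sets. The first (1370464_at) had log2 signals of 6.11, 6.88 and 7.80 after NaF for 3, 6 and 12 h, against 5.37, 5.92, 6.11 and 5.86 after vehicle for 0, 3, 6 and 12 h. The NaF signal climbed from array to array, and at 6 and 12 h it stood above the whole vehicle range. The second (1370465_at) had 5.57, 6.24 and 7.20 after NaF, against 5.02, 5.40, 5.31 and 5.18 after vehicle. Here all 3 NaF arrays were above the vehicle range. The same-time differences were 0.19, 0.77 and 1.94 for the first and 0.17, 0.92 and 2.02 for the second, over vehicle signals that were all below 7. The differences at 12 h ranked 113th and 104th from the highest among the 11745 tested probe sets at 12 h.

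Against the vehicle mean, the limma change at 12 h was 1.98 (SE 0.26, adjusted p = 0.00166) at the first probe set and 1.97 (SE 0.14, adjusted p = 0.000318) at the second. At 6 h the changes were 1.07 (SE 0.26, adjusted p = 0.0246) and 1.01 (SE 0.14, adjusted p = 0.00444). At 3 h they were 0.29 and 0.34, with limma adjusted p of 0.564 and 0.224. The first probe set lost its 6 h call when the 3 h vehicle array was left out (adjusted p = 0.0642), when the 12 h vehicle array was left out (0.0674) and without the filter (0.086). Without the filter the second kept its 6 h call (limma adjusted p = 0.0242), and both kept their 12 h calls (0.0101 and 0.00304). The pair moved alike over the 7 arrays (Pearson r = 0.985, a description over arrays that share their samples and a time course). The study's own gene lists, drawn from these same arrays, also hold Abcb1 and Abcb4, so their direction is not independent evidence.

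The probe set shared by Abcb1a and Abcb1b (1370583_s_at) had another time course. Its signals were 9.03, 10.04 and 9.50 after NaF, against 9.13, 9.01, 9.17 and 9.13 after vehicle. The 3 h NaF array lay inside the vehicle range and the other NaF arrays above it, with the peak at 6 h. The limma changes were -0.08 at 3 h (adjusted p = 0.605), 0.93 at 6 h (SE 0.08, adjusted p = 0.00107) and 0.39 at 12 h (SE 0.08, adjusted p = 0.00856). Whereas both own probe sets of Abcb1a were highest at 12 h, this one was lower at 12 h than at 6 h by 0.54 (SE 0.10, limma adjusted p = 0.011 in a contrast added after the data were seen). Between 6 and 12 h, 40.2% of all tested probe sets were called in that contrast. The share of Abcb1b in the signal cannot be read from this probe set.

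Abcb4, the phosphatidylcholine transporter, was highest at 6 h of NaF. Its only probe set (1369161_at) had signals of 5.82, 7.50 and 6.73 after NaF, against 5.53, 5.25, 5.28 and 5.16 after vehicle. All 3 NaF arrays were above the vehicle range, and all vehicle signals were below 7. The same-time differences were 0.57, 2.22 and 1.58, and that at 6 h ranked 37th from the highest. By limma the changes were 2.20 at 6 h (SE 0.14, adjusted p = 0.000565) and 1.43 at 12 h (SE 0.14, adjusted p = 0.000661). This probe set passed the filter through NaF arrays only, and without the filter the limma adjusted p were 0.00586 and 0.00492. At 3 h the change was 0.51 (SE 0.14, adjusted p = 0.0879). Without the vehicle array of 0 h the 3 h change was 0.59 and passed (adjusted p = 0.0379). From 3 to 6 h of NaF the signal was higher by 1.68 (SE 0.18, adjusted p = 0.0203), a step at which 6.2% of tested probe sets were called, and from 6 to 12 h the difference was -0.77 (adjusted p = 0.0203). Both steps missed the threshold without the filter (adjusted p = 0.104 and 0.0736) and when the 6 h vehicle array was left out (0.0983 and 0.0554), as did the first step when the 12 h vehicle array was left out (0.0715). In the fit of all 3 NaF against all 4 vehicle arrays, Abcb4 was the only own probe set called, with a change of 1.38 (SE 0.34, adjusted p = 0.0498), while 4.35% of all tested probe sets were called higher and 4.31% lower. That call was lost in most alternatives, with adjusted p between 0.0543 and 0.146 where it was lost. It was kept without the NaF array of 3 h (0.00236), with array medians set equal (0.0488) and after quantile normalization (0.0481).

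**Figure D2:**
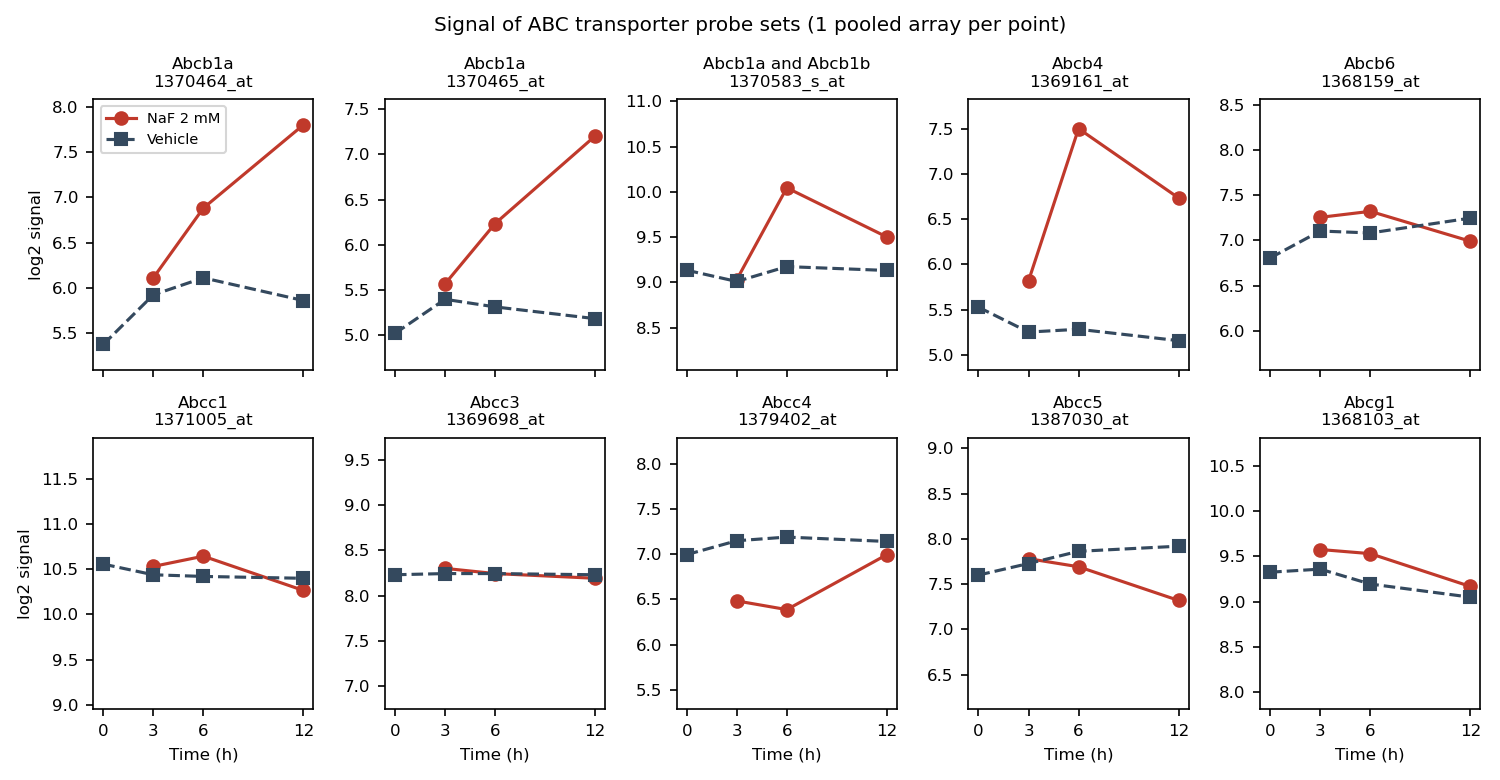
Log2 signal (vertical axis, every panel spanning the same number of log2 units) against hours of treatment for the tested probe sets, with NaF in red circles and vehicle in blue squares, 1 pooled array per point. Abcb1a is highest at 12 h of NaF, the shared probe set and Abcb4 at 6 h, Abcc4 dips at 3 and 6 h and Abcc5 is lowest at 12 h, while the lines of Abcc3 lie on each other.

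Abcb4, Abcb1b and Abcb1a follow each other on chromosome 4, so the 5 protein-coding genes on each side were looked at after the data were seen. Of these 10 genes, 7 had a probe set used here and 2 were tested. Crot, which encodes the peroxisomal carnitine octanoyltransferase and lies next to Abcb4, changed by -0.31 at 6 h (limma adjusted p = 0.0414) and by -1.19 at 12 h (SE 0.09, adjusted p = 0.000345). Sri, which encodes the calcium-binding protein sorcin, changed by -0.71 at 12 h (SE 0.08, adjusted p = 0.000838). Neither was called higher at any time. Over all tested probe sets, 2.88% were called higher and 5.91% lower at 3 h. The shares were 16.9% and 21.5% at 6 h, and 29.7% and 30.8% at 12 h. Abcb4 and the own probe sets of Abcb1a were tested through NaF arrays only, so the 2 flanking genes are no like comparison. Whether the region changed as a whole was not tested. The remaining 5 had dim signals, and their same-time differences at 12 h included -0.43 for Rundc3b, which lies next to Abcb1a.

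**Figure D3:**
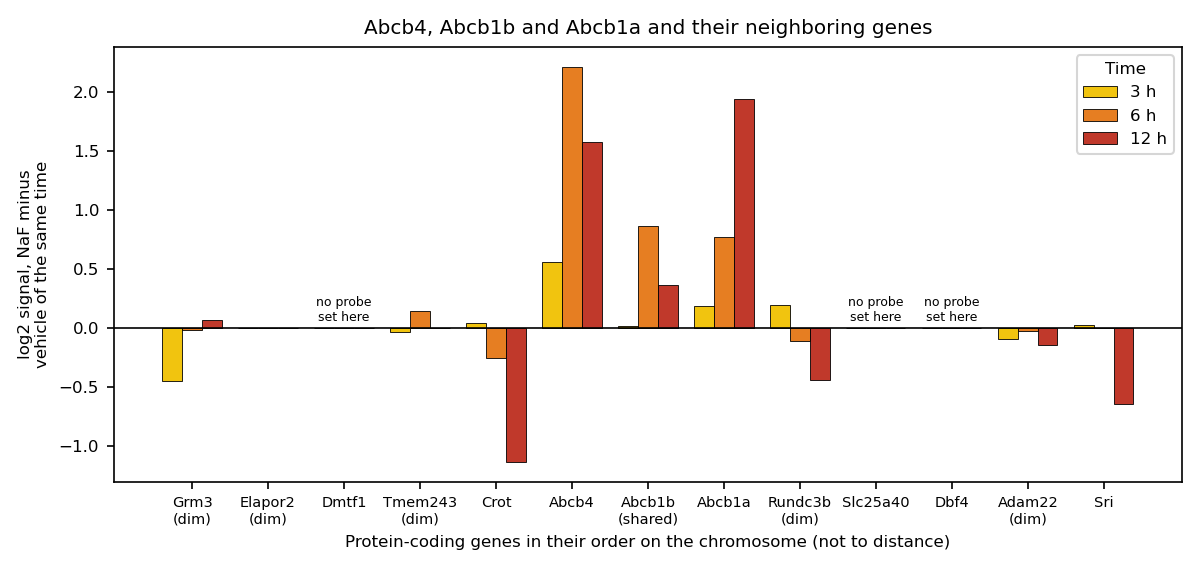
Same-time differences in log2 signal (vertical axis; yellow 3 h, orange 6 h, red 12 h) for Abcb4, the probe set shared by Abcb1b and Abcb1a, the first own probe set of Abcb1a and the genes beside them in their order on the chromosome. Genes marked dim were not tested, and the bars of Elapor2 are at 0.0. At 12 h the bars of Crot and Sri go down and those of Abcb4 and Abcb1a go up.

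Among the multidrug resistance-associated proteins, Abcc1, an exporter of glutathione conjugates and leukotriene C4, had signals of 10.53, 10.64 and 10.26 after NaF, against 10.55, 10.44, 10.42 and 10.40 after vehicle. The 6 h NaF array was above and the 12 h array below the vehicle range. By limma the changes were 0.19 at 6 h (SE 0.08, adjusted p = 0.115) and -0.19 at 12 h (SE 0.08, adjusted p = 0.09), neither of which passed. The 6 h change passed without the vehicle array of 0 h (0.22, adjusted p = 0.0349), and the 12 h change passed after quantile normalization (-0.23, adjusted p = 0.0441). The difference between the NaF arrays of 12 and 6 h, -0.38 (SE 0.10), passed with a limma adjusted p of 0.0318, but not without the filter (0.0954) or when the vehicle array of 3, 6 or 12 h was left out (0.0541, 0.0739 and 0.0555).

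Abcc3, which exports bile acids and glucuronides, hardly varied. Its signals were 8.30, 8.24 and 8.19 after NaF, against 8.23, 8.24, 8.24 and 8.23 after vehicle. The changes by limma lay between -0.05 and 0.06, with an SE of 0.06 and adjusted p of 0.563, 0.942 and 0.523 at 3, 6 and 12 h.

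Abcc4, an exporter of cyclic nucleotides and prostaglandins, was the only one of these transporters called lower at 3 and 6 h. The signals were 6.48, 6.39 and 6.99 after NaF, against 6.99, 7.15, 7.19 and 7.14 after vehicle. At 3 and 6 h of NaF they were below every vehicle array, and at 12 h the NaF array equalled the lowest of them. The same-time differences of -0.66 and -0.80 ranked 327th and 642nd from the lowest. By limma the changes were -0.63 at 3 h (SE 0.09, adjusted p = 0.0152), -0.73 at 6 h (SE 0.09, adjusted p = 0.00273) and -0.12 at 12 h (SE 0.09, adjusted p = 0.279). It lost the 3 h call when the 6 h vehicle array was left out (adjusted p = 0.0695), when the 12 h vehicle array was left out (0.0644) and without the filter (0.0748). Between 6 and 12 h of NaF the signal differed by 0.61 (SE 0.11, adjusted p = 0.0106).

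Abcc5, which also carries cyclic nucleotides and, in worms and zebrafish, heme, had signals of 7.78, 7.69 and 7.32 after NaF, against 7.60, 7.73, 7.86 and 7.92 after vehicle, at its tested probe set (1387030_at). The 12 h NaF array was below the vehicle range, and the vehicle series itself was highest at 12 h. The change at 12 h was -0.46 by limma (SE 0.13, adjusted p = 0.0252). It missed the threshold without the vehicle array of 3 h (adjusted p = 0.0568), without that of 6 h (0.0652) and without the filter (0.0773). The dim second probe set of Abcc5 (1375468_at) was at 3.73 to 4.42 on all arrays, and its difference at 12 h was -0.17.

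Abcb6, the porphyrin carrier, had signals of 7.25, 7.32 and 6.99 after NaF, against 6.81, 7.10, 7.08 and 7.25 after vehicle. The limma changes were 0.20, 0.26 and -0.07 at 3, 6 and 12 h, each with an SE of 0.16, and their adjusted p were 0.527, 0.247 and 0.736. The vehicle arrays alone spanned more than any of these changes.

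For the cholesterol exporters, the tested probe set of Abcg1 (1368103_at) had 9.58, 9.53 and 9.17 after NaF, against 9.33, 9.36, 9.19 and 9.05 after vehicle. The 3 and 6 h NaF arrays were above the vehicle range, but the limma changes of 0.34 (SE 0.13, adjusted p = 0.174) and 0.30 (SE 0.13, adjusted p = 0.12) did not pass. A second probe set (1373995_at) was dim, with 5.43, 5.16 and 5.15 after NaF, against 4.69, 4.86, 4.69 and 4.55 after vehicle. All NaF arrays were above all vehicle arrays there. Without the filter, in the fit of 3 NaF against 4 vehicle arrays, its change was 0.55 (SE 0.11, limma adjusted p = 0.0478), the only call among the 16 own probe sets in that setting, where 1.23% of 31042 probe sets were called higher. The third (1387054_at) stayed between 5.03 and 5.17 on all arrays.

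Abca1 was not tested, because its 4 probe sets were dim on every array. The brightest (1383355_at) had 5.41, 5.15 and 4.99 after NaF, against 5.16, 4.95, 5.15 and 5.12 after vehicle. Only the 3 h NaF array stood above the vehicle range. Over the 7 own probe sets below the filter, signals ran from 2.09 to 5.43, and the same-time differences from -0.17 to 0.69 at 3 h, from -0.08 to 0.47 at 6 h and from -0.17 to 0.60 at 12 h.

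Lists of genes with related functions were read beside the 29.7% of all tested probe sets called higher and the 30.8% called lower at 12 h. The shares called higher and lower were 16.9% and 21.5% at 6 h, and 2.88% and 5.91% at 3 h. Among the other ABC transporters, 31 of 42 listed genes were on the array and 14 were tested, each at its brightest probe set. At 12 h 3 were called higher and 4 lower, and the median change was -0.07. The mitochondrial transporter Abcb10 changed by -0.82 (limma adjusted p = 0.00531), Abca2 by -0.69 (0.00118) and the peroxisomal fatty acid transporter Abcd3 by -0.68 (0.000485), while Abcf1, which acts in translation, changed by 0.47 (0.00161). At 6 h 2 were called higher and 1 lower, and at 3 h there was no call in either direction.

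Of the regulators of drug transporter genes, 8 of 16 were tested, and at 12 h 3 were called higher and 1 lower, with a median change of 0.24. Ppard, a nuclear receptor for fatty acids, rose by 0.98 at 12 h (limma adjusted p = 0.00271) and by 1.32 at 6 h (0.00212). Nfe2l2, the transcription factor NRF2, changed by -0.91 at 3 h (adjusted p = 0.00454) and by 0.47 at 12 h (0.00429). Of the subunits of NF-Y, which binds CCAAT, Nfyb fell by 0.59 at 12 h (adjusted p = 0.00154) and Nfya rose by 0.32 (0.0432). At 6 h 1 regulator was called higher and 3 lower, beside 16.9% and 21.5% over all tested probe sets. At 3 h the calls were 0 and 1, beside 2.88% and 5.91%.

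For LXR and cholesterol handling, to which Abca1 and Abcg1 belong, 13 of 22 genes were tested. At 12 h 3 were called higher and 5 lower, beside 29.7% and 30.8% over all tested probe sets. At 6 h the calls were 4 and 1, beside 16.9% and 21.5%, and at 3 h 1 and 0, beside 2.88% and 5.91%. The medians were 0.01, 0.14 and -0.08 at 3, 6 and 12 h. Mylip, the LXR-induced ligase that degrades the LDL receptor, rose by 1.39 at 3 h (limma adjusted p = 0.00411), 2.15 at 6 h (0.000518) and 1.94 at 12 h (0.000226). Soat1, which esterifies cholesterol, rose by 0.65 at 12 h (adjusted p = 0.00131), while Srebf2, the regulator of cholesterol synthesis, fell by 1.01 (0.00065) and Insig2 fell by 0.38 (0.00854). The tested genes Srebf1, Scarb1, Lpcat3, Scd and Insig1 were not called at 12 h. Of these 5, Insig1 (0.78, limma adjusted p = 0.0313) and Srebf1 (0.28, 0.02) were called higher at 6 h, and the others were not. Activity of the liver X receptors was not tested.

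In heme synthesis and handling, 11 of 15 genes were tested, and 4 were called higher and 3 lower at 12 h, with a median of 0.12, again beside 29.7% and 30.8% over all tested probe sets. The heme oxygenases Hmox1 and Hmox2, which break heme down, rose by 1.30 (limma adjusted p = 0.000482) and 0.55 (0.00185), the mitochondrial glycine carrier Slc25a38 rose by 0.95 (0.00054), and the heme transporter Slc48a1 fell by 0.53 (0.00208). In glutathione supply and conjugation, 12 of 18 were tested and 3 were called higher and 4 lower at 12 h, with a median of -0.12. The cystine carrier Slc7a11 rose by 1.70 (adjusted p = 0.000215), whereas the transferases Mgst3, Mgst1 and Gsta4 fell by 0.98 (0.000486), 0.91 (0.000267) and 0.75 (0.000651). At 6 h both lists had 4 genes higher and 1 lower, beside 16.9% and 21.5% over all tested probe sets. At 3 h neither had a call, beside 2.88% and 5.91%.

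In prostaglandin and leukotriene synthesis, 7 of 12 genes were tested, with 2 called higher and 1 lower at 12 h and a median of 0.06. The prostaglandin E synthase Ptges rose by 1.17 (limma adjusted p = 0.000335) and the cyclooxygenase Ptgs2 by 0.80 (0.0096), and Lta4h, which makes leukotriene B4, fell by 0.55 (0.00114). Among drug-metabolizing enzymes, 6 of 17 were tested, with 2 higher and 3 lower at 12 h and a median of -0.04. The aldehyde dehydrogenase Aldh3a1 fell by 1.38 (adjusted p = 0.000797) and the epoxide hydrolase Ephx1 by 0.69 (0.0232), and Por, the reductase that serves cytochromes P450, rose by 0.49 (0.0154), as did Cyp3a9 by 0.36 (0.0045). At 6 h the calls were 2 higher and 1 lower in the prostaglandin and leukotriene list and 3 and 0 among the enzymes. The shares over all tested probe sets were 16.9% and 21.5%. There was no call at 3 h, beside 2.88% and 5.91%.

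**Figure D4:**
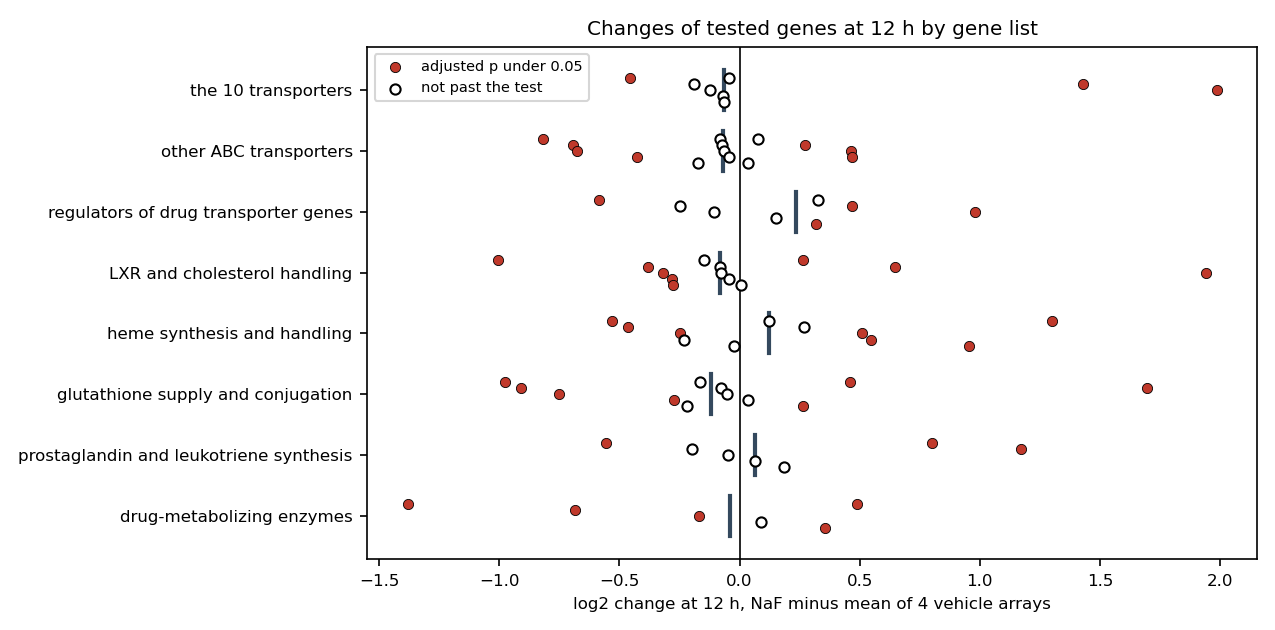
Log2 change at 12 h of NaF against the mean of the 4 vehicle arrays (horizontal axis) for each tested gene of each list at its brightest probe set; filled points have an adjusted p under 0.05, open points do not, and the dark bar is the median of the list. Every list has filled points on both sides of 0, and the medians run from -0.12 to 0.24.

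The arrays were even in level, with medians over all probe sets of 5.33 to 5.35. The 3′ minus 5′ signal of the beta-actin control, a sign of RNA length, was 1.77 to 2.39 on the NaF arrays and 1.53 to 2.83 on the vehicle arrays, with the highest value on the vehicle array of 3 h. Without that array, 824 probe sets in place of 1032 were called at 3 h, and Abcc4 was still the only own probe set called (-0.62, limma adjusted p = 0.0488). Most epithelial markers were bright, with 10 of 12 tested and a median vehicle signal of 10.54. Krt18 and Krt19 were dim, with mean vehicle signals of 2.98 and 3.06, and were not tested. At 12 h 1 epithelial marker was called higher and 4 lower, beside 29.7% and 30.8% over all tested probe sets. The keratin Krt8 and the desmosomal genes Dsg2 and Dsp fell by 0.51, 1.06 and 0.42 at 12 h, and the tight junction gene Cldn1 rose by 0.42 (limma adjusted p = 0.0016, 0.000708, 0.00751 and 0.0391). Of the listed markers, 1 of 9 mesenchymal, 1 of 9 leukocyte, 1 of 8 endothelial and 1 of 9 skeletal muscle genes passed the filter (Vim, Cd14, Egfl7 and Myh1), and the medians of these lists were 3.60 to 4.13 on the vehicle arrays. These 4 genes were all called at 12 h, Vim with a change of -1.19 (limma adjusted p = 0.000197), Cd14 with -0.70 (0.000725), Egfl7 with -0.27 (0.0231) and Myh1 with 0.50 (0.044). Cd14 was also called lower at 3 h (-0.74) and 6 h (-1.28), and Myh1 was called higher at 6 h (0.78). Their part in the results for the transporters was not tested. Of 8 reference genes tested, 0 were called higher and 2 lower at 12 h, with a median change of -0.01. The lower ones were Gusb, with a change of -1.01 (limma adjusted p = 0.000482), and Hprt1, with -0.62 (0.000894).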

How the data were processed

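The authors pooled total RNA of 3 independent experiments per treatment and time, labeled it with a 3′ IVT kit, hybridized 7 Affymetrix whole-genome rat arrays and processed the scans with GeneSpring GX. The deposited values are log2 signals per probe set, already normalized by a method not given in the sources used here, and they were used without further scaling. Array control probe sets were left out of tests, and only probe sets with a signal of at least 7 on any array were tested. Genes were named by the platform annotation, which gave 20832 probe sets 1 symbol, 436 several and 9831 none. The array whose label gives no time was taken as vehicle at 0 h from the study's methods.

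Tests used limma 3.58.1 (lmFit and eBayes, two-sided, Benjamini-Hochberg over all tested probe sets) in R 4.3.3, with 3 residual and 2.67 prior degrees of freedom for single NaF arrays. The number of arrays limits the precision, and log2 signals varied over the vehicle arrays with a median SD of 0.0803. The fits were also run on simulated data, in which the NaF arrays varied like the vehicle arrays by construction. That run cannot show whether the p-values hold for these single pooled arrays. Alternatives were other filters and scalings, a variance trend, each array left out, time as a block, the methods' t-test, the vehicle array of the same time, 2-fold, and averaging the probe sets of a gene. The members and lists were chosen with earlier results of these data known. Of each other list, the up to 4 genes called at 12 h with the largest change were named, and the genes most like the members with the largest difference at 12 h in each direction. Gapdh, also in this rule, lies on array control probe sets, and its 3′ control differed by 0.10, 0.10 and 0.01 between NaF and vehicle of 3, 6 and 12 h. Contrasts between NaF times and the flanking genes were added after the data were seen.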

Additional observations from a re-analysis of the deposited data

Results flagged for a closer look

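For 4 transporters the response to NaF differed between times, by the limma contrast of the NaF arrays with each other (20 contrasts of 10 tested probe sets, own and shared, with adjusted p under 0.05 over all tested probe sets). From 3 to 6 h the differences were 1.01 at the probe set shared by Abcb1a and Abcb1b (SE 0.10, adjusted p = 0.02) and 1.68 at Abcb4 (SE 0.18, adjusted p = 0.0203). From 6 to 12 h they were 0.97 at the second own probe set of Abcb1a (SE 0.18, adjusted p = 0.0113), -0.54 at the shared probe set (SE 0.10, adjusted p = 0.011), -0.77 at Abcb4 (SE 0.18, adjusted p = 0.0203), -0.38 at Abcc1 (SE 0.10, adjusted p = 0.0318) and 0.61 at Abcc4 (SE 0.11, adjusted p = 0.0106). Over all tested probe sets, 6.2% were called in the first contrast and 40.2% in the second. The calls of Abcb4, of Abcc1 and of the shared probe set in the first contrast were lost with no filter on signal (adjusted p of 0.0736 to 0.104). Without the vehicle array of 6 h the same 4 calls had adjusted p of 0.0554 to 0.0983, and Abcb4 and the shared probe set in the first contrast also missed without that of 12 h (0.0715), as Abcc1 did without that of 3 h (0.0541) or 12 h (0.0555). These contrasts take the vehicle cells as level over time. Of 17 probe sets examined for a vehicle array far from the other vehicle arrays, 0 had one.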

How the results depend on the processing

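Single pooled arrays limit every result, and for probe sets below a signal of 7 no measure of detection was used here. At 3 h, 1032 probe sets were called, against 223 with no filter and 208 to 824 without 1 vehicle array (208 without that of 6 h, 349 without that of 12 h). In the fit of 3 NaF against 4 vehicle arrays 1017 were called (50.2% higher), against 619 with no filter (61.9% higher), 37 by the methods' t-test after Benjamini-Hochberg (3147 at an unadjusted p under 0.05) and 58 to 3342 without 1 array; these were 3342 without NaF 3 h, 2057 without NaF 12 h, 151 without NaF 6 h, and 71, 120, 58 and 85 without vehicle of 0, 3, 6 and 12 h. With time as a replicate block (3 pairs), limma called 0 (2424 at an unadjusted p under 0.05). Deviations of same-time arrays from their group means had correlations of 0.06, 0.03 and -0.07 for 3, 6 and 12 h. On the NaF side these deviations also hold the response over time, so they cannot decide whether arrays of the same time go together. The times were not treated as pairs in the main fits. Past 2.5-fold at any time were 728 probe sets, against 1594 past 2-fold.

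Of the own transporter probe sets, 1 was called at 3 h, against 0 with the mean filter, 0 with no filter and 0 to 2 without 1 vehicle array. At 6 h 4 were called, against 0 with the mean filter and 3 to 5 without 1 vehicle array. At 12 h 4 were called, against 1 and 3 to 4. The mean filter tested 5 own probe sets in place of 9, without Abcb1a, Abcb4 and Abcc4. The probe sets called at 3 and 6 h were therefore not tested there. Over all probe sets, 4511 of 11745 were called at 6 h and 7114 at 12 h. With the mean filter 4167 and 6493 of 10707 were called, and without 1 vehicle array 3055 to 4443 and 6004 to 7105. In the fit of 3 against 4 arrays 1 was called, against 0 with the mean filter, a variance trend, the block or the t-test, and 0 to 3 without 1 array (3 without NaF 3 h). The called probe set also changed. It was Abcb4, higher, in the main fit, but Abcc4, lower, without NaF 12 h (limma adjusted p = 0.00383). With no filter it was the dim second probe set of Abcg1 (1373995_at), higher. Near 0, the change of Abcc5 at 3 h turned when vehicle of 0 h (-0.055) or of 3 h (-0.013) was left out, with a range of -0.055 to 0.051 over the vehicle arrays. Over 3 against 4 arrays Abcc1 turned without NaF 6 h (range -0.056 to 0.13) and Abcc3 without NaF 3 h (range -0.019 to 0.035). Of the values for single transporters under the alternatives, 556 kept direction and, where there was a p-value, side of the threshold. A further 31 lost and 8 gained a call. Where there was a p-value, size was not part of this count, so the 556 include shifts in size. Over 3 against 4 arrays the second own probe set of Abcb1a went from 1.11 to 0.67 without NaF 12 h. The 4 values of Abcc5, Abcc1 and Abcc3 named above were counted as turned, and 9 as moved by more than the spread of the vehicle arrays. Some of these 9 also changed sign. With only the vehicle array of matching hour as reference, the shared probe set at 3 h went from -0.08 to 0.02. In that setting the tested probe set of Abcg1 at 12 h went from -0.06 to 0.12. With the probe sets of a gene averaged, Abcc5 at 6 h went from -0.09 to 0.11 and Abcg1 at 12 h from -0.06 to 0.15. The cause of these differences was not tested.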

Other observations

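Over the 7 arrays, the genes whose log2 signals ran most like the second own probe set of Abcb1a, the tested own probe set with the largest difference at 12 h, were Riok3, an atypical kinase (Pearson r = 0.999), Plscr1, a phospholipid scramblase (0.998), and Puf60, a splicing factor (0.997). The same-time differences of Plscr1 and Puf60 at 12 h were 2.35 and 0.24, so profiles of like shape differed in size. Of 9759 probe sets of single other genes, 576 reached r of at least 0.95, and all of these values share 7 arrays and a time course.

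For Abcc5, the transporter with the lowest difference at 12 h, the most alike were Xrcc6, which encodes the Ku70 subunit of the DNA end-binding complex (r = 0.990), Kctd1 (0.978) and Cep164, a centriole gene (0.978), with differences at 12 h of -0.28, -0.87 and -0.90. Here 35 of 9759 probe sets reached r of at least 0.95. These correlations are descriptions over 7 arrays.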
